A study of Homo sapiens with 6 samples.

Results

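Cohesin, separase and securin were followed through 10 genes. *SMC1A*, *SMC3*, *RAD21*, *STAG1* and *STAG2* encode the ring and its STAG subunits, *WAPL*, *PDS5A* and *PDS5B* encode release and protection factors, and *ESPL1* and *PTTG1* encode separase and securin. They were taken by name, through the Ensembl identifier of each row, from a deposited table of 58336 genes. The cells were A2780, an established ovarian cancer line, and the labels give no genetic change to any of them. One group received the DMSO vehicle and the other 6 µM TH-588 (TH588) for 48 h. The study classes TH588 as a first-generation mitotic inhibitor of MTH1, an enzyme that clears oxidized nucleotides. The study also reports that such inhibitors transiently stalled A2780 cells in mitosis. Each group had 3 libraries, replicates A, B and C, from biological triplicates of 1 cell line.

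Cohesin is a ring built from a pair of long coiled-coil ATPases, SMC1A and SMC3, closed by the kleisin RAD21 and joined by either STAG1 or STAG2. It holds sister chromatids together from replication until anaphase and also folds chromatin into loops. WAPL with the PDS5 proteins opens the ring in prophase, and separase cuts the RAD21 that is left once securin, its inhibitor and chaperone, has been degraded at the end of metaphase. Both *PTTG1* and *ESPL1* are known as genes expressed mostly by dividing cells.

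Total counts ran from 28537837 in TH588 replicate A to 99074175 in TH588 replicate B. TH588 replicate A stood apart, since the small nucleolar RNA *SNORD3A* made up 21.9% of its counts and 7.68% to 13.0% of the counts elsewhere. The 10 genes had between 833 and 71431 counts in each library, so that counting alone gave an error of at most 3.46%. Epithelial markers were scarce for a line labelled ovarian. Of *EPCAM*, *KRT8*, *KRT18*, *KRT19* and *CDH1*, 2 of 5 were abundant enough to test, and together they summed to 3.73 to 4.57 CPM (counts scaled to a common library size) with DMSO and 10.7 to 12.1 CPM with TH588. *PAX8*, *WT1*, *MUC16* and *ESR1* summed to at most 0.299 CPM in any library. The 4 blood and endothelial markers *PTPRC*, *CD3E*, *PECAM1* and *VWF* summed to at most 0.144 CPM, with *CD3E* at 0 counts throughout. Of the fibroblast collagens, *COL1A1* stood at 2.58 to 4.94 CPM and was not called, while *COL3A1* stood at 1573 to 1901 CPM with DMSO and 1862 to 2600 CPM with TH588. The groups of *COL3A1* overlapped, and it was called higher (log2 fold change 0.39, adjusted p = 0.0154 by edgeR), though not without DMSO replicate B or TH588 replicate B or at an adjusted p under 0.01. The larger rises were those of *EPCAM* (log2 fold change 2.87, adjusted p = 8.23e-07 by edgeR) and *KRT18* (0.88, adjusted p = 0.00017 by edgeR). Both were called higher in all 14 alternatives as well. The part of the rises of *EPCAM*, *KRT18* and *COL3A1* in the results was not tested.

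After TH588, 9 of the 10 genes were lower and none was higher at an adjusted p under 0.05 by edgeR's quasi-likelihood test. The fitted log2 fold changes of the 9 ran from -1.31 for *ESPL1* and -1.23 for *SMC1A* to -0.30 for *PTTG1*, with the interval of each gene overlapping that of the next, and *STAG2* was the gene whose difference did not pass the test. Over all 15844 genes tested, 49.6% were called, 25.3% as lower and 24.2% as higher. Among the 2805 tested genes whose mean log2 CPM was 6 or more, where all 10 genes lay, 49.2% were lower and 16.6% were higher, so that abundant genes in general were more often lower. The median log2 fold change was -0.55 for the 10 genes, -0.22 for the abundant genes and 0.02 for all genes tested. In 9 of the 10 genes the libraries of both groups did not overlap, which was also true of 57.7% of all genes tested. No gene of the 10 was higher at an unadjusted p under 0.05, with edgeR, DESeq2 or limma-voom (0 each). Lower levels can reflect fewer cells in the phases that express a gene or less of its RNA per cell, which cannot be told apart in bulk RNA.

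**Figure D1:**
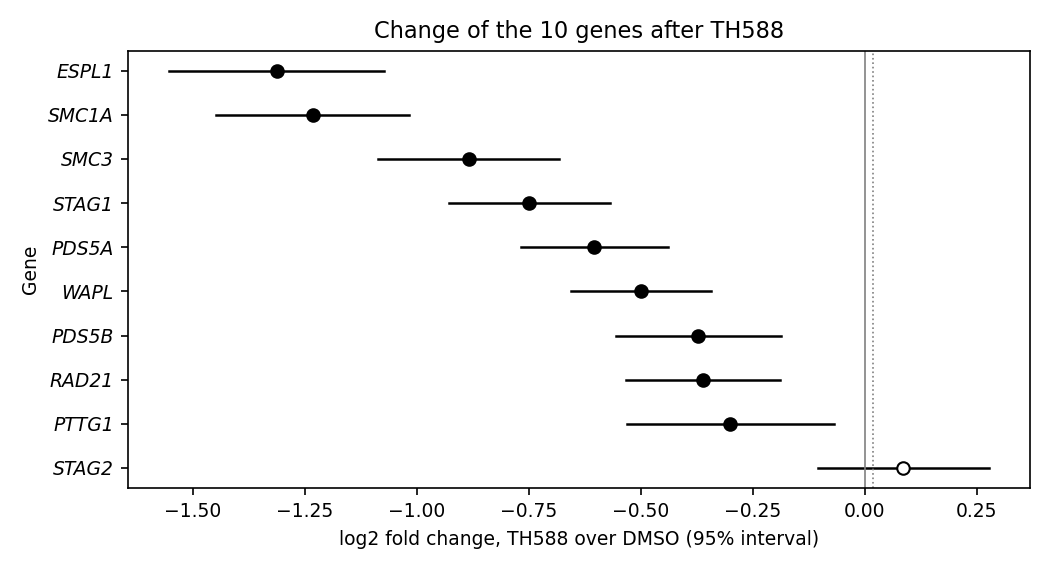
log2 fold change of each of the 10 genes (TH588 over DMSO, x axis) with its 95% interval from edgeR, ordered from the deepest fall. Filled points passed an adjusted p of 0.05, the open point (*STAG2*) did not, the solid line marks 0 and the dotted line the median of all genes tested, 0.02.

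Both ATPases of the ring fell, and the intervals of their log2 fold changes overlapped (-1.45 to -1.02 for *SMC1A* and -1.09 to -0.68 for *SMC3*). *SMC1A* (ENSG00000072501, chromosome X of GRCh38, 53374149 to 53422728) stood at 839, 733 and 763 CPM under DMSO (replicates A, B and C in turn, as for every gene) and at 299, 376 and 319 CPM under TH588. Every TH588 library was thus well below every DMSO library. The mean was 778 ± 54.9 before and 331 ± 39.9 CPM after treatment (SD, n = 3 each), 2.35-fold lower (log2 fold change -1.23, SE 0.10, adjusted p = 1.07e-06 by edgeR). Only 2.97% of the genes tested had a log2 fold change below that of *SMC1A*. *SMC3* (ENSG00000108055, chromosome 10, 110567691 to 110604636) stood at 272, 289 and 305 CPM with DMSO and at 139, 158 and 173 CPM with TH588. The groups were again clearly separate, and the mean went from 289 ± 16.1 to 156 ± 16.9 CPM (log2 fold change -0.88, SE 0.09, adjusted p = 9.08e-06 by edgeR).

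*RAD21* (ENSG00000164754, chromosome 8, 116845935 to 116874866), the kleisin that separase cuts, had a smaller fitted fall than *SMC1A* and *SMC3*, with an interval that overlapped neither of theirs. It stood at 424, 378 and 427 CPM with DMSO and at 322, 323 and 311 CPM with TH588, where the coefficient of variation was 1.99%. Its fitted log2 fold change was -0.36 (95% interval -0.53 to -0.19, adjusted p = 0.00226 by edgeR). With library size as the only scaling it was -0.26 and no longer passed (adjusted p = 0.0510 by edgeR). That scaling raised the median of all genes by 0.11, and relative to the median *RAD21* was at -0.39 with library size and -0.38 with the main TMM scaling. Exons of other genes on the opposite strand, mainly *UTP23*, cover 14.2% of the exon bases of *RAD21*, and the strand setting of the counting is not given in the sources used here.

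The STAG paralogs, which take the same place on the ring in separate complexes, had log2 fold changes whose intervals did not overlap. *STAG1* (ENSG00000118007, chromosome 3, 136336233 to 136752403) stood at 182, 172 and 198 CPM with DMSO and at 115, 106 and 108 CPM with TH588. All TH588 libraries were lower, with a log2 fold change of -0.75 (SE 0.08, adjusted p = 1.27e-05 by edgeR). *STAG2* (ENSG00000101972, chromosome X, 123960212 to 124422664), a gene often inactivated in cancers, stood at 285, 279 and 323 CPM with DMSO and at 317, 291 and 334 CPM with TH588. The groups overlapped, and the log2 fold change was 0.09 with a 95% interval from -0.10 to 0.28 (adjusted p = 0.444 by edgeR). A rise of up to 0.28 or a fall of up to 0.10 thus lay within the interval. Exons of *PCCB* on the opposite strand cover 21.2% of the exon bases of *STAG1*, and those of other genes cover 3.29% of *STAG2*. Over all libraries *PCCB* had 70210 counts and *STAG1* had 71288.

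The 250 bases before the RefSeq start sites of *STAG1* (chr3:136752379-136752628, minus strand) and *STAG2* (chrX:123960310-123960559, plus strand, the first of 3 starts) are shown because *STAG1* was called and its paralog *STAG2* was not. They are in GRCh38.p14, 5′ to 3′ on the strand of the gene. Capitals mark 3 motifs searched on both strands, TTTGAA (a cell cycle homology region), CCAAT (bound by NF-Y) and GGCGGGAA (an E2F-like site).
STAG1: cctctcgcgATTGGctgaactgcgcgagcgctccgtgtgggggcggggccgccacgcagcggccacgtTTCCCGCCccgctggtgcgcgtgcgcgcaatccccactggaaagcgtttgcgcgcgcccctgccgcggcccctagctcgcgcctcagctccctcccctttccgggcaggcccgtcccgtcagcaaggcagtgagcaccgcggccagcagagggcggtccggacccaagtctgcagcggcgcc
STAG2: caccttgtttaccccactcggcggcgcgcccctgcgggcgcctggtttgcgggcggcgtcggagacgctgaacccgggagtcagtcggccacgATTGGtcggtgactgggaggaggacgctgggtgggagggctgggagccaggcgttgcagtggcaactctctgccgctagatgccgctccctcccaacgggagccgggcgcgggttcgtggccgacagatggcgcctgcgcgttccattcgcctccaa
On the opposite strand, *STAG1* held CCAAT 241 bases and GGCGGGAA 182 bases before the start, and *STAG2* held CCAAT 157 bases before its start. Of 35116 promoter windows of this length, 32.0% held CCAAT, 13.3% TTTGAA and 2.72% GGCGGGAA. Windows were found for 9 of the 10 genes, all except *RAD21*, and since some have several starts there were 13 windows. CCAAT was in 9 of these windows, TTTGAA in 2 and GGCGGGAA in 2, which are the counts in the same unit as the shares above. The windows of *PTTG1* overlap each other and share their CCAAT matches, and those of *SMC1A* also overlap, so the windows are not independent. Counted by gene, CCAAT was in at least 1 window of 7 (*ESPL1*, *PDS5A*, *PDS5B*, *PTTG1*, *STAG1*, *STAG2* and *WAPL*), TTTGAA in 2 (*ESPL1* and *SMC3*) and GGCGGGAA in 2 (*PDS5A* and *STAG1*). None of the 3 was in the windows of *SMC1A*. A match describes the letters in the window and is no evidence of binding.

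Among release and protection factors, all 3 genes fell. *WAPL* (ENSG00000062650, chromosome 10, 86435256 to 86521815), which opens the ring, stood at 167, 166 and 173 CPM with DMSO and at 118, 119 and 121 CPM with TH588. Its replicates were the tightest in the TH588 group, and the fitted log2 fold change was -0.50 (SE 0.07, adjusted p = 0.000110 by edgeR). *PDS5A* (ENSG00000121892, chromosome 4, 39822863 to 39977956), a scaffold that serves both WAPL and its opponents, stood at 312, 307 and 325 CPM with DMSO and at 217, 205 and 200 CPM with TH588. Its groups were separate as well, with a log2 fold change of -0.60 (SE 0.08, adjusted p = 3.55e-05 by edgeR). Its paralog *PDS5B* (ENSG00000083642, chromosome 13, 32586427 to 32778019) stood at 83.7, 88.8 and 85.1 CPM with DMSO and at 62.4, 63.4 and 73.2 CPM with TH588. TH588 replicate C was the highest of its group but still below every DMSO library. The log2 fold change of *PDS5B* was -0.37 (SE 0.08, adjusted p = 0.00298 by edgeR), and with library size only it was -0.26 and did not pass (adjusted p = 0.0784 by edgeR), while relative to the median of all genes it was -0.39 under both scalings.

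Separase and securin, the protease and its inhibitor, both fell, and their intervals did not overlap. *ESPL1* (ENSG00000135476, chromosome 12, 53268299 to 53293643) stood at 93.9, 95.6 and 96.7 CPM with DMSO and at 31.1, 43.6 and 39.9 CPM with TH588. The DMSO libraries were nearly level (coefficient of variation 1.51%) and all TH588 libraries lay far below them. The mean was 95.4 ± 1.44 under DMSO and 38.2 ± 6.39 CPM under TH588 (SD, n = 3 each), 2.48-fold lower (log2 fold change -1.31, SE 0.11, adjusted p = 1.44e-06 by edgeR). Only 2.28% of the genes tested had a lower log2 fold change than *ESPL1*. *PTTG1* (ENSG00000164611, chromosome 5, 160421822 to 160428744) stood at 153, 165 and 153 CPM with DMSO and at 105, 139 and 138 CPM with TH588. TH588 replicate A, the library that stood apart, was the lowest by far. The mean went from 157 ± 7.0 to 127 ± 19.6 CPM (SD, n = 3 each), with a log2 fold change of -0.30 (95% interval -0.53 to -0.07, adjusted p = 0.0333 by edgeR). This call was fragile. Without TH588 replicate A the log2 fold change of *PTTG1* was -0.17 (adjusted p = 0.0641 by edgeR), and it also missed the threshold without DMSO replicate A, B or C and with library size only.

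*PTTG1* has near-identical copies elsewhere in the genome, to which reads can be assigned. *PTTG2* and *PTTG3P* together held 0.411 to 0.755 CPM, at most 0.547% of the level of *PTTG1* in any library. *PTTG3P* passed as lower (log2 fold change -1.40, adjusted p = 0.0379 by edgeR) from a level of 0.277 ± 0.0417 CPM, but 11 of 14 alternatives did not call it. *PTTG2* stood at 0.263 ± 0.0871 under DMSO and 0.441 ± 0.148 CPM under TH588 (SD, n = 3 each) and did not pass (adjusted p = 0.145 by edgeR). How reads shared between copies were counted is not given in the sources used here.

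The bases before the start sites of *ESPL1* (chr12:53268049-53268298, plus strand) and *PTTG1* (chr5:160421605-160421854, plus strand, the first of 2 starts) are shown for the protease and its inhibitor, with the same capitals.
ESPL1: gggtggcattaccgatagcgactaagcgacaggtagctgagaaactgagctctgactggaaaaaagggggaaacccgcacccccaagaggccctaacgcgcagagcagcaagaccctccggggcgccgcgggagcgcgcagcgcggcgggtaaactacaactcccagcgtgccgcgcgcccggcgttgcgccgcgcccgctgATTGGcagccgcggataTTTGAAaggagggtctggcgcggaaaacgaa
PTTG1: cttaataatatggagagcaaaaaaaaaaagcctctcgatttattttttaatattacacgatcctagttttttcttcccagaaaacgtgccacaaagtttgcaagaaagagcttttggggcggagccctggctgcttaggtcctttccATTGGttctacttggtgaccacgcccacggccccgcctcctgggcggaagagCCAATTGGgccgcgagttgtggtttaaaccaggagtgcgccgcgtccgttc
*ESPL1* held CCAAT on the opposite strand 48 bases before its start, followed by TTTGAA 31 bases before it. *PTTG1* held CCAAT at 103, 51 and 48 bases before the start, the last and the middle match overlapping on opposite strands, and neither of the other motifs.

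Levels of different genes can be compared only per length, so counts were divided by the deposited gene length and the scaled library size (RPKM). That length covers all annotated exon bases of a gene, which can exceed the transcript that the cells make. The order between genes depends on it, and other lengths were not tested. With DMSO the order ran from *PTTG1* (78.0 ± 3.48 RPKM) through *SMC1A* (74.2 ± 5.24), *SMC3* (67.6 ± 3.78) and *RAD21* (66.1 ± 4.43) to *STAG2* (36.1 ± 2.96), *PDS5A* (25.8 ± 0.743), *STAG1* (23.4 ± 1.72), *WAPL* (23.3 ± 0.482), *ESPL1* (10.7 ± 0.162) and *PDS5B* (6.50 ± 0.201 RPKM, SD, n = 3 each). Each of the first 4 overlapped its neighbour, as did *PDS5A* with *STAG1* and *STAG1* with *WAPL*, while the steps from *RAD21* to *STAG2*, *STAG2* to *PDS5A*, *WAPL* to *ESPL1* and *ESPL1* to *PDS5B* were free of overlap. With TH588 *PTTG1* (63.2 ± 9.71 RPKM) still led, overlapping with *RAD21* (51.5 ± 1.03). *STAG2* (38.3 ± 2.65), *SMC3* (36.6 ± 3.96) and *SMC1A* (31.6 ± 3.8 RPKM) then overlapped in turn. The levels of *PDS5A* (17.0 ± 0.742) and *WAPL* (16.5 ± 0.233 RPKM) overlapped with each other, and *STAG1* (13.96 ± 0.578 RPKM) lay below both. *PDS5B* (5.02 ± 0.453) and *ESPL1* (4.30 ± 0.719 RPKM) came last and overlapped.

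**Figure D2:**
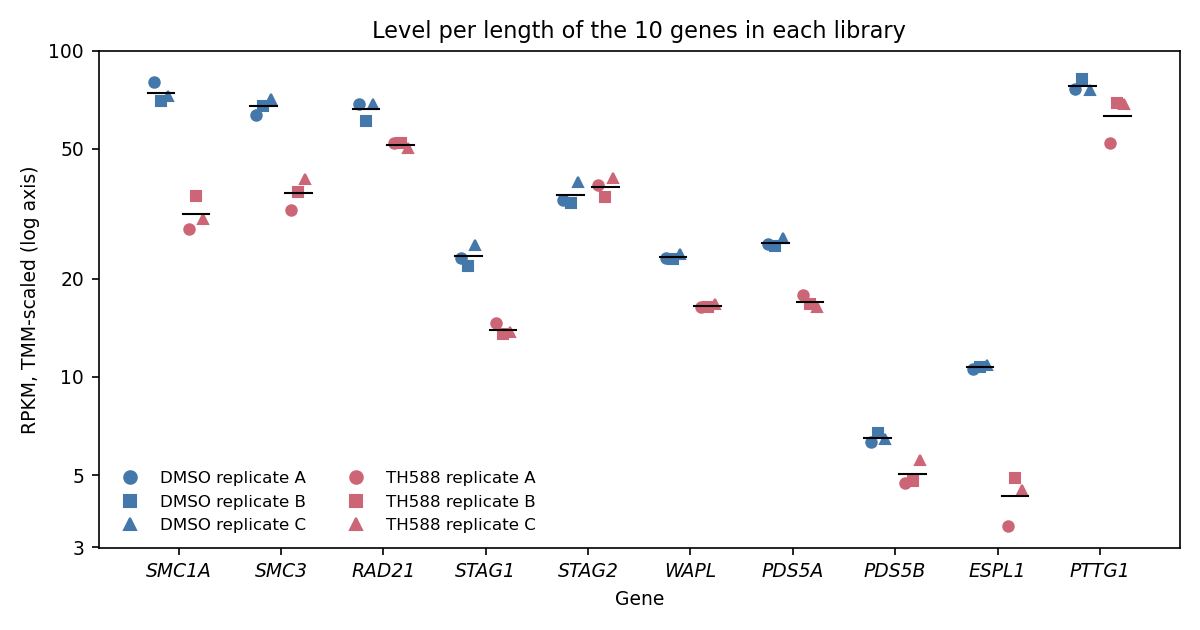
Level per length (RPKM, log axis) of each gene in the 3 DMSO libraries (blue) and the 3 TH588 libraries (red), with symbols for replicates A, B and C and bars for group means. *SMC1A*, *SMC3* and *RAD21* lie close together with DMSO, between 61.0 and 80.1 RPKM, and *RAD21* lies above both others with TH588.

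Ratios between paired genes within a library do not depend on the scaling between libraries, and 5 pairs were compared. The ratio of *STAG2* to *STAG1* per length was 1.501, 1.557 and 1.562 in the DMSO libraries and 2.65, 2.62 and 2.97 in the TH588 libraries. No TH588 library overlapped the DMSO libraries, and *STAG2* made up 60.6% ± 0.527 of STAG transcripts with DMSO and 73.3% ± 1.33 with TH588 (SD, n = 3 each). These values use the full gene length, and the part that the overlap of *STAG1* with *PCCB* has in them was not tested. The log2 difference of the ratio was 0.83 (SE 0.06, exact two-sided permutation test p = 0.1, adjusted p over 5 pairs 0.125). With 3 libraries against 3 the smallest p this test can give is 0.1, so none of the 5 pairs could pass 0.05.

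The level ratio of *ESPL1* to *PTTG1* per length was 0.139, 0.131 and 0.144 with DMSO and 0.0673, 0.0708 and 0.0655 with TH588. These groups were far apart relative to their spread, with a log2 difference of -1.02 (SE 0.05, exact permutation p = 0.1, adjusted 0.125). Unlike the fall of *PTTG1* itself, the ratio scarcely depended on TH588 replicate A, and ranged from -1.06 to -0.99 with each library left out in turn. For *RAD21* over *SMC3* the ratio was 1.07, 0.901 and 0.967 with DMSO and 1.60, 1.41 and 1.25 with TH588, a log2 difference of 0.53 (SE 0.13, exact permutation p = 0.1, adjusted 0.125). The ratio of *SMC1A* to *SMC3* was 1.26, 1.03 and 1.02 with DMSO and 0.877, 0.970 and 0.754 with TH588, a log2 difference of -0.35 (SE 0.14, exact permutation p = 0.1, adjusted 0.125). The last pair had the closest groups without overlap. For *PDS5B* over *PDS5A* the groups overlapped, at 0.242 to 0.267 with DMSO and 0.265 to 0.339 with TH588 (log2 difference 0.23, SE 0.11, exact permutation p = 0.2, adjusted 0.2).

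**Figure D3:**
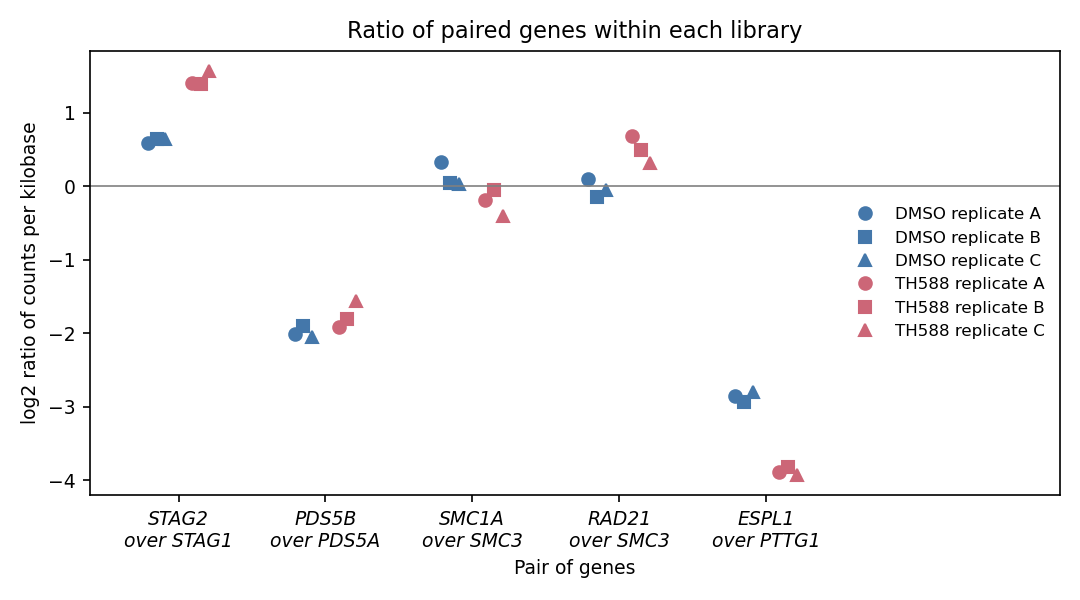
log2 ratio of counts per kilobase for 5 pairs of genes, 1 point for each library (DMSO blue, TH588 red, symbols for replicates). The pairs *STAG2* over *STAG1* and *ESPL1* over *PTTG1* show the widest gaps between groups, with log2 differences of 0.83 and -1.02, and *PDS5B* over *PDS5A* overlaps.

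Other genes of the cohesin cycle were taken as lists. Of 9 genes for loading, acetylation and centromere protection, 5 were lower, 3 were higher and 1 did not pass (median log2 fold change -1.05). Of all genes tested, 25.3% were lower and 24.2% were higher. Whether this split goes with the cell cycle phase in which each gene acts was not tested. *ESCO2*, which acetylates SMC3 during replication, fell from 30.3 ± 0.741 to 9.76 ± 0.899 CPM (log2 fold change -1.64), and *CDCA5* (sororin, which keeps WAPL off) from 16.7 ± 1.19 to 5.42 ± 1.66 CPM (log2 fold change -1.59). *HASPIN*, a histone H3 kinase of mitotic centromeres, *SGO1*, the shugoshin that shields centromeric cohesin, and its relative *SGO2* fell by 1.28, 1.16 and 1.05 on the log2 scale. Of the 3 that rose, *MAU2*, the partner of the loader NIPBL, went from 22.8 ± 1.23 to 31.7 ± 1.12 CPM (log2 fold change 0.48), and *ESCO1*, the other SMC3 acetyltransferase, and *HDAC8*, which removes the acetyl group, both had a log2 fold change of 0.34 (SD, n = 3 each). *HDAC8* stood at 19.5, 20.1 and 20.3 CPM under DMSO and 29.7, 23.6 and 23.2 CPM under TH588, highest in TH588 replicate A, and its adjusted p of 0.0190 by edgeR did not pass 0.01. *NIPBL* itself stood at 245 ± 11.6 and 244 ± 17.9 CPM (log2 fold change -0.01, 95% interval -0.18 to 0.17, adjusted p = 0.959 by edgeR).

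All 7 genes for replication-coupled cohesion were lower, beside 25.3% of all genes tested, with a median log2 fold change of -1.13. *DSCC1*, a subunit of the alternative clamp loader, fell most (log2 fold change -1.67), followed by the fork protection pair *TIPIN* (-1.32) and *TIMELESS* (-1.27). *WDHD1*, which links the replicative helicase and polymerase, was at -1.13, the helicase *DDX11*, which has near-identical copies in the genome, at -1.07, and the clamp loader subunit *CHTF18* at -0.87. *CHTF8* was at -0.29 and was not called at an adjusted p under 0.01, under library size scaling alone, or without DMSO replicate A, DMSO replicate B or TH588 replicate A.

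Of all genes tested, 49.6% were called, 25.3% as lower and 24.2% as higher. Counts for the 2 other SMC complexes of human cells are given beside these shares. All 8 condensin genes were lower, from -1.60 for *NCAPH* to -0.65 for *NCAPD2*, with a median of -1.23. Of 7 SMC5/6 genes, 3 were lower (*NSMCE4A* at -1.46, *SMC6* at -0.97 and *SMC5* at -0.37), *NSMCE2* was higher at 0.58, and 3 did not pass, with a median of 0.05, so that 4 of 7 were called, a share near that of all genes. With library size only, *SMC5* did not pass either (log2 fold change -0.26). Exons of *WASHC5* on the opposite strand cover 5.42% of the exon bases of *NSMCE2*. Over all libraries *WASHC5* had 38324 counts and *NSMCE2* 5514. Other genes of the lists also share exon bases with neighbours, among them *NCAPG* (33.1%), *SMC4* (25.6%), *HASPIN* (15.3%) and *CHTF8* (12.9%). The part of these overlaps in the results was not tested. Differences between condensin and SMC5/6, and between either list and the 10 cohesin, separase and securin genes, were not tested. The meiotic relatives of the ring stayed rare. *SMC1B* and *RAD21L1* were at most 0.642 CPM in every library, *REC8* stood at 3.22 ± 0.286 and 4.18 ± 0.452 CPM (called higher, but not in 8 of 14 alternatives), and *STAG3* at 1.43 ± 0.430 and 3.96 ± 0.181 CPM with DMSO and TH588 (SD, n = 3 each). *STAG3* rose by a log2 fold change of 1.47 (adjusted p = 0.000103 by edgeR). However, exons of other genes cover a large part of it, with 13.6% of its exon bases shared with *CASTOR3P* and 18.7% with *PVRIG*. Over all libraries *CASTOR3P* had 5183 counts, *STAG3* 1225 and *PVRIG* 3.

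**Figure D4:**
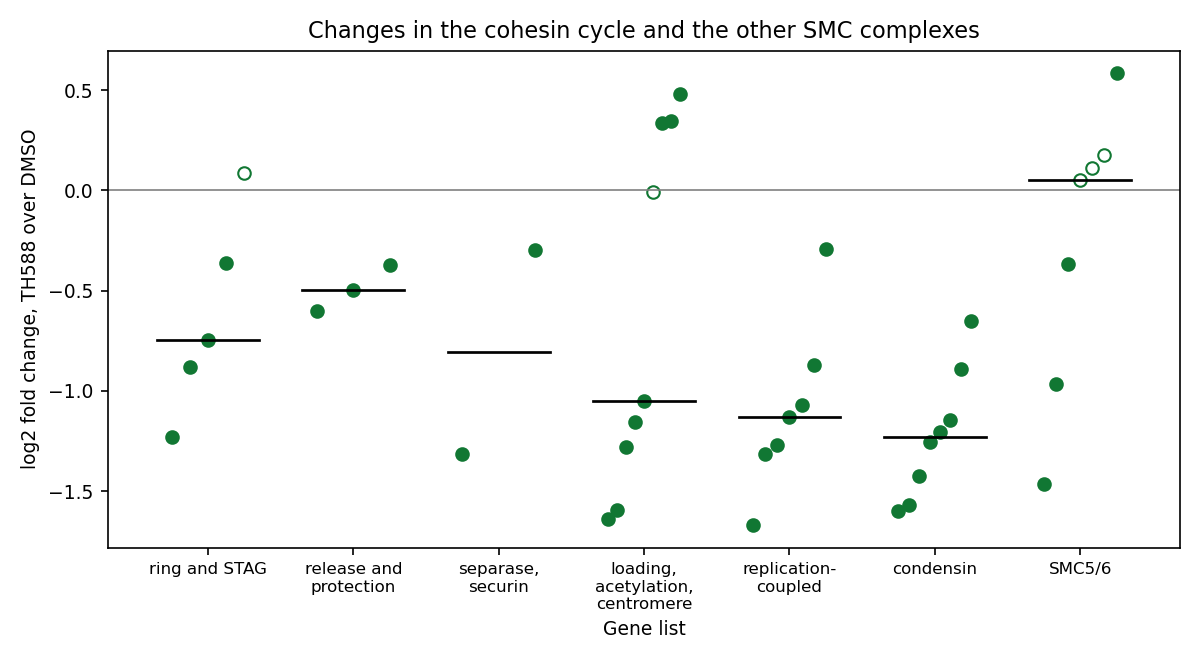
log2 fold change (TH588 over DMSO) of each tested gene in 7 lists, with bars for list medians. Filled points passed an adjusted p of 0.05 by edgeR, and open points did not. All 8 condensin points lie below 0, while the SMC5/6 points spread from -1.46 to 0.58.

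The genes most like *ESPL1* and *PTTG1* over the 6 libraries were found by the distance between log2 CPM values centred on each gene's mean, among 9761 other genes whose mean log2 CPM was 2 or more. Closest to *ESPL1* were *FEN1* (distance 0.11), a flap endonuclease of replication and repair, *CHAF1B* (0.13), a subunit of a histone chaperone for new chromatin, and *ITGB3BP* (0.13), which encodes a centromere protein, with log2 fold changes of -1.38, -1.37 and -1.28. Closest to *PTTG1* were *CEP95* (0.08), a centrosomal gene, *MTRFR* (0.10), a mitochondrial release factor gene, and *CREB3* (0.11), which encodes a transcription factor, with log2 fold changes of -0.24, -0.27 and -0.33, of which only that of *CREB3* passed the test. These distances describe 6 libraries that share their grouping and treatment. Since the distance takes in the difference between the groups, log2 fold changes near those of *ESPL1* and *PTTG1* follow from the selection.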

How the data were processed

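RNA of A2780 cells was sequenced in 6 libraries, 3 for each treatment. Per the labels and the study's methods, the authors prepared TruSeq v2 libraries, aligned reads to GRCh38 with TopHat, counted them per gene with featureCounts 1.4.6 and compared groups with DESeq2. They deposited raw counts, without normalization, for 58336 genes with Ensembl identifiers, of which 57754 matched a symbol, and a gene length in bases, which was used for RPKM.

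Counts were tested here with edgeR 4.0.16 in R 4.3.3 (TMM, default low-count filter, quasi-likelihood test, Benjamini-Hochberg adjustment over 15844 genes). CPM are scaled to TMM library sizes, and standard errors are the log2 fold change over the root of the F statistic. Ratios were tested with SciPy 1.17.1. Total counts and floors cover counting error only. Replicates differed beyond sampling noise (chi-square per degree of freedom 25.2 to 179.9 within groups). These values scale by total counts only, with *SNORD3A* included, so they mix differences in composition with replicate spread. Pairs with TH588 replicate A were the highest (115.7 and 179.9). The alternatives used DESeq2 1.42.0, limma 3.58.1, other scalings and filters, a threshold of 0.01, each library left out and the replicate letter as a block.

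Members and lists were chosen with earlier results of these data known. Named were all 10 genes, any gene of the fixed lists, and the 3 genes nearest to *ESPL1* and *PTTG1* (pseudocount 0.5 CPM). Promoter windows are RefSeq sequences of GRCh38.p14.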

Additional observations from a re-analysis of the deposited data

How the results depend on the processing

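Of the 10 genes, 9 were called in the main comparison, and 8 to 9 with each library left out in turn, 8 when an adjusted p under 0.01 was required, 6 when only library size was scaled, and 9 in each of the other alternatives. All 10 kept their direction in all 14 alternatives. With library size only, *RAD21* (-0.26), *PDS5B* (-0.26) and *PTTG1* (-0.19) did not pass. That scaling raised the median of all genes by 0.11, from 0.02 to 0.13, and the share of called genes that were higher to 60.4% from 48.9%. *PTTG1* (-0.30) also missed an adjusted p under 0.01, and ranged from -0.37 to -0.17 with each library left out, missing the threshold without DMSO replicate A, B or C or TH588 replicate A. The cause was not tested. *STAG2* ranged from 0.04 to 0.19 and passed in none of the alternatives.

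No sign was seen that the replicate letters pair the libraries. The correlation between libraries of 1 letter, after the mean of each group was removed, was -0.07 (A), -0.08 (B) and 0.00082 (C) over 15844 genes. With 3 libraries in each group, such values cannot show that pairing was absent. With the replicate block, 7195 genes were called against 7852, and the same number of the 10 genes, 9, was called. At a floor of 3 counts, TH588 replicate A could not show levels under 0.105 CPM (unscaled), far below the 10 genes but near those of *SMC1B* and *PTTG3P*. The log2 ratios of the 5 pairs each kept their sign with every library left out.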
